A study of Mus musculus with 2 samples.

Results

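Genes encoding feedback inhibitors of mitogen-activated protein kinase signalling were followed in haematopoietic stem and progenitor cells labelled WT or cKO for Trmt6. Trmt6 encodes the non-catalytic subunit of the tRNA m1A methyltransferase. The 10 genes were the dual-specificity phosphatases Dusp1, Dusp2, Dusp4, Dusp5, Dusp6 and Dusp10, the Sprouty genes Spry1 and Spry2, and the Spred genes Spred1 and Spred2. They were chosen by symbol, and all 10 were found in the feature lists of both libraries, which hold 27998 genes, 17742 of them with a UMI in the cells kept here. Single-cell RNA was measured by droplet capture in LSK cells (lineage-negative, Sca-1-positive, c-Kit-positive) sorted from bone marrow of mice aged 3 months. There was 1 library labelled WT, with the genotype Trmt6fl/fl, and 1 library labelled cKO, with the genotype Trmt6fl/fl, MX1-cre. Mx1-Cre is driven by an interferon-responsive promoter, and the methods of the study describe pIpC injections to delete the floxed alleles and a control that also carried Mx1-Cre, which the WT label does not name. Whether several mice were pooled is not given in the sources used here.

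Growth factors and cytokines such as SCF, the ligand of Kit, switch on Ras and the kinases Raf, MEK and ERK, while stress acts through the kinases JNK and p38. Cells limit these signals with inhibitors that are themselves made in response to them. Dual-specificity phosphatases remove the phosphates from the threonine and tyrosine of the activation loop of ERK, JNK or p38. Sprouty and Spred proteins act upstream, at the receptor, Ras and Raf, and Spred1 does so together with neurofibromin. Transcripts of several of these genes, Dusp6 and the Sprouty genes among them, are widely read as a trace of recent ERK activity, and Dusp1 belongs to the immediate early genes.

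The libraries differed in depth. After the limits of the study and removal of likely doublets, 8148 WT cells with a median of 4131.5 UMIs and 8479 cKO cells with a median of 10042 UMIs remained. For Trmt6 itself the WT level was 63.5 CPM (2651 UMIs) and the cKO level 50.2 CPM (4369 UMIs), with a log2 ratio of -0.34 (95% interval -0.41 to -0.27), so the transcript was still abundant in the library labelled cKO. A count of 3' ends does not show whether the floxed part was deleted. The libraries shared 24 cell barcodes. With 1 library per genotype, no value below has a replicate and no p-value is given. Levels are CPM (the summed UMIs of a gene, scaled to the total UMIs of the same cells), ratios are cKO over WT, and all intervals are exact 95% intervals that cover counting error only, not the variation between mice, sorts or libraries.

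Cells were assigned to lineages by fixed marker lists, with a cell entering a gate when it had at least 2 markers of that list and more than of any other. The gates with at least 50 cells in both libraries were HSC (630 WT and 1170 cKO cells), LMPP (637 and 125), GMP (1382 and 81), megakaryocyte (297 and 56), monocyte or dendritic (331 and 383) and T or NK (162 and 182). A further 4335 WT and 6241 cKO cells that met no list, or met several equally, formed the ungated group. Smaller gates were not compared, highest and lowest levels given below are among these 7 groups, and cells under 2000 UMIs were not gated. In every gate more of its own markers than of any other list stood among its 10 leading genes, but the markers were not at the same level in both libraries. In the HSC gate 2 of 9 markers were lower in cKO by 2-fold or more, among them Pdzk1ip1 (log2 ratio -1.34), while Procr (-0.02) and Esam (0.24) were close to level. In the GMP gate 1 of 5 was lower by as much, Elane (-2.20), and Ctsg was higher (0.55). In the megakaryocyte gate 6 of 7 were lower, Pf4 by -2.42. In the monocyte or dendritic gate 4 of 9 were lower: Csf1r had 53.6 CPM in WT but 0.588 CPM in cKO (-6.20), with Ly86 at -3.76 and Ccr2 at -3.03, while the class II genes H2-Aa (0.03) and H2-Ab1 (0.04) were level, and Jchain and Mzb1 were among the leading genes of that gate in cKO alone. In the LMPP gate 5 of 6 were below 0, with Satb1 lower by 2-fold (-1.07) and Flt3 at -0.50, and Rag1 was higher in cKO (1.46 and 12.8 CPM). In the T or NK gate the defining marker Cd3e had 0 UMIs in both libraries, Cd3g (2.22) and Il2rb (1.18) were higher in cKO by 2-fold, and Nkg7 (-0.82), Ccl5 (-0.80) and Thy1 (-0.75) were lower by less. Ratios within a gate therefore compare cells that passed the same gate, not cells shown to be of the same state.

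Over all kept cells, Dusp1 was lower in cKO. It was at 306 CPM in WT (12760 UMIs, interval 300 to 311) and at 52.1 CPM in cKO (4532 UMIs, interval 50.6 to 53.6), 5.87-fold lower in cKO. Dusp2 and Spry2 were also lower in cKO, by less than 2-fold, while Dusp6 and Spred1 were higher by less than 2-fold. Dusp4 was higher in cKO by more than 2-fold but at a level below 5 CPM in both libraries. Of the 8 members at 5 CPM or more in at least 1 library, 1 was lower by 2-fold or more and 0 were higher, while 5.24% of the 9142 genes at that level were lower by as much and 2.90% were higher. The median log2 ratio was -0.03 over all 10 members and -0.23 over the 8 at that level, and that of all genes at that level was -0.07. Counted by their intervals, 4 of the 10 members were lower, 4 were higher and 2 included 0. The share of all genes with such intervals was not computed, so these counts have no background beside them.

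**Figure D1:**
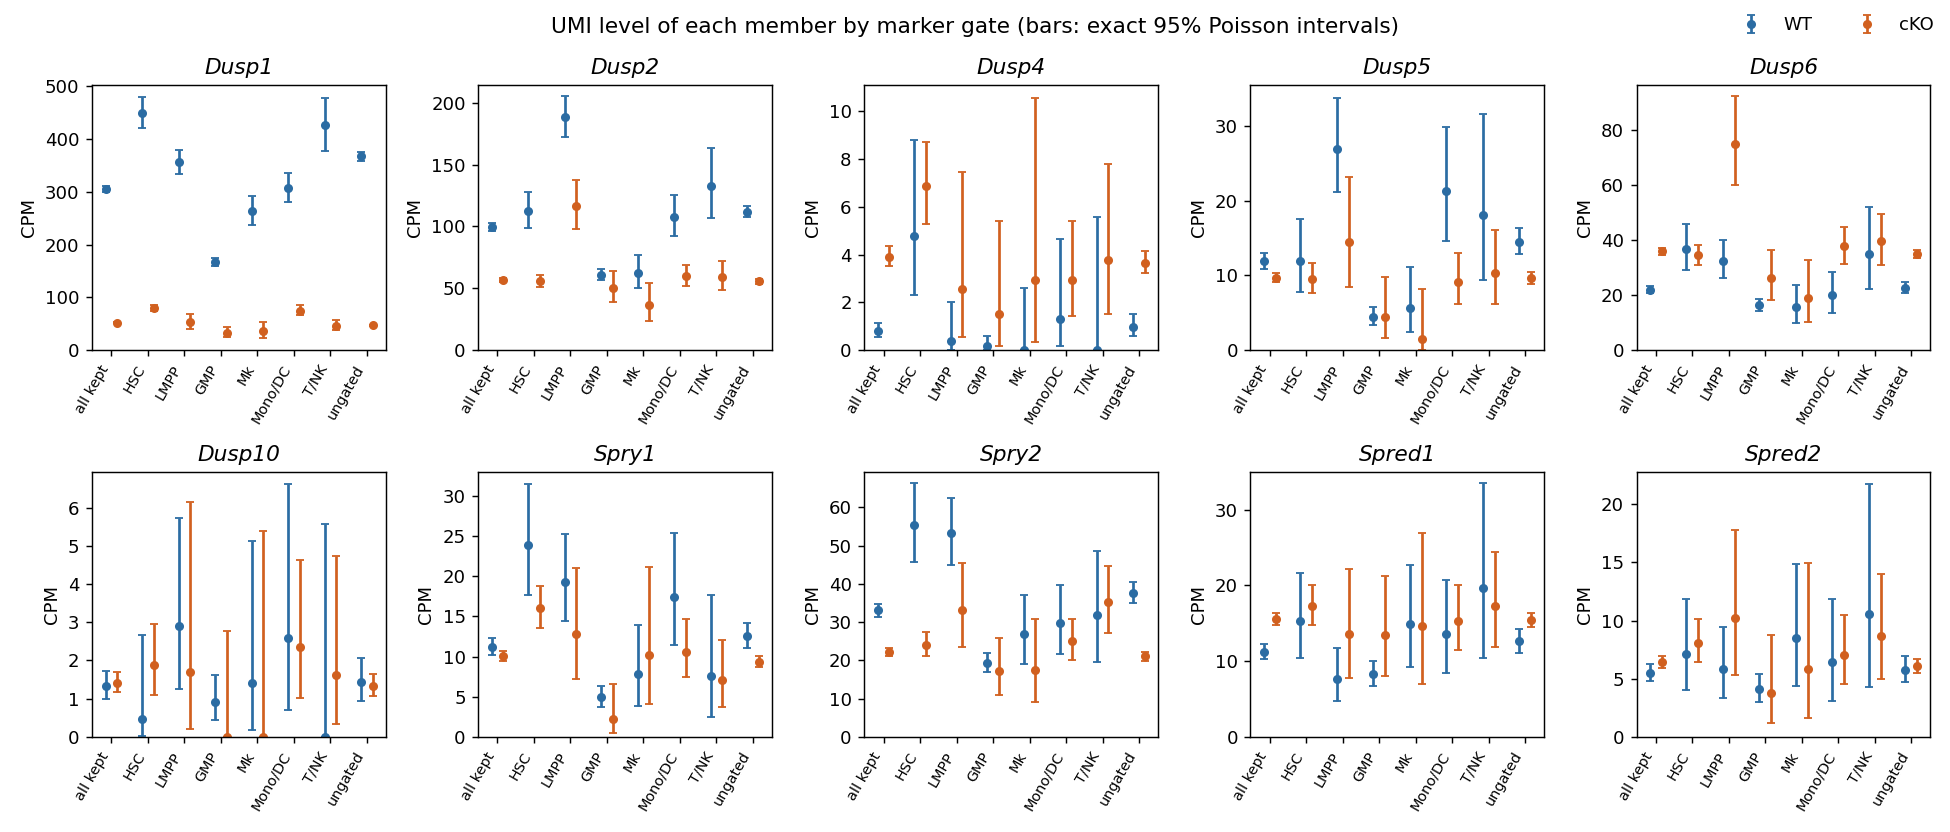
Level of each of the 10 members (y axis, CPM, from 0) in all kept cells, in the 6 marker gates and in ungated cells (x axis), with WT in blue and cKO in orange and bars for exact 95% Poisson intervals. Dusp1 in WT runs from 167 CPM in the GMP gate to 450 CPM in the HSC gate, and in cKO no group lies above 78.9 CPM, while Dusp6 in the LMPP gate is higher in cKO.

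Dusp1 encodes a nuclear phosphatase that acts mainly on JNK and p38 and also on ERK. The gene spans chr17:26505590-26562128 on the minus strand of GRCm38, where Gm8225 and Ergic1 overlap it on the other strand and AC122252.4 and AC122252.1 on the same strand. The promoter is shown because, among the 9 members with a RefSeq window, it was the only one that held TGACGTCA, the palindromic cyclic AMP response element (CRE), on either strand. That motif was in 1.79% of 32851 windows of the same length over all genes. The window below, chr17:26508423-26508722 on the minus strand of GRCm38.p6, runs from 250 bases before to 50 bases after the annotated start, with the match at -143 to -136 in capitals. It has a GC content of 67.0%, against a median of 52.7% over all windows. The gene span and the window come from different annotations, and the window lies inside the span, not at its upstream end of 26562128.
Dusp1 promoter: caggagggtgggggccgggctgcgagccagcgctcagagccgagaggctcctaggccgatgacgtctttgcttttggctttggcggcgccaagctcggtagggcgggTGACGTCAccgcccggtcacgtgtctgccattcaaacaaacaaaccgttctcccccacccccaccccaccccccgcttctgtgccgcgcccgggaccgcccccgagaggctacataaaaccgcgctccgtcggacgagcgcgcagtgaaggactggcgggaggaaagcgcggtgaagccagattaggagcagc

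Dusp1 was lower in cKO in all 7 cell groups. In WT its level was 450 CPM in the HSC gate, 426 CPM in the T or NK gate, 367 CPM in ungated cells, 356 CPM in the LMPP gate, 307 CPM in the monocyte or dendritic gate, 264 CPM in the megakaryocyte gate and 167 CPM in the GMP gate. Neighbours in this order had overlapping intervals, except at the steps from T or NK to ungated cells and from megakaryocyte to GMP. In cKO the HSC gate was also highest and the GMP gate lowest of the 7, from 78.9 CPM in the HSC gate through 74.7 CPM in the monocyte or dendritic gate and 52.7 CPM in the LMPP gate to 32.9 CPM in the GMP gate. Among the 7 groups the HSC gate had the lowest median depth (2915.5 UMIs in WT, 7734.5 in cKO). The GMP gate had the highest (8355.5 and 16455). The part of depth in the order of the groups was not tested, for Dusp1 or for any other member. The log2 ratio ran from -3.19 (-3.56 to -2.84) in the T or NK gate to -2.04 (-2.26 to -1.81) in the monocyte or dendritic gate, and was -2.51 (-2.65 to -2.37) in the HSC gate. In cells of 3000 to 6000 UMIs, where only 3 groups had enough cells, it was -1.66 in ungated cells, -1.21 in the HSC gate and -0.82 in the monocyte or dendritic gate, which is short of 2-fold. With gates set at 1000 UMIs the LMPP gate was at -1.72. In cells thinned to 2000 UMIs, 42.9% of WT cells (interval 41.8% to 44.0%) and 10.95% of cKO cells had a Dusp1 UMI. Without thinning the shares were 63.5% and 34.9%. No gate is known to lack Dusp1. Among gates of at least 50 WT cells, the lowest thinned share was 10.8% in the neutrophil gate (7 of 65 cells), which had too few cKO cells to compare. The basophil or mast gate, also too small to compare (55 WT and 29 cKO cells), had a higher Dusp1 level than the HSC gate, 568 CPM in WT and 159 CPM in cKO.

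Immediate early transcripts moved in the same direction as Dusp1. They are the genes switched on within minutes of stimulation, by growth factors and also by handling of cells, and 16 of the 19 list genes at 5 CPM or more were lower in cKO by 2-fold or more, with 0 higher and a median log2 ratio of -2.08. Jun had the largest difference (-3.33), followed by Atf3 (-2.81), and the smallest were those of Ier5 (-0.43) and Nfkbia (-0.55). The summed level of the 21 list genes was 5764 CPM in WT and 1440 CPM in cKO over all cells, and in the HSC gate 8563 CPM and 1702 CPM. Among the 7 groups, the HSC gate had the highest Dusp1 level and, in WT, the highest summed level, but in cKO the monocyte or dendritic gate did (1788 CPM). The GMP gate had the lowest Dusp1 level and the lowest summed level of the 7 (3352 CPM in WT, 1187 CPM in cKO). The share of mitochondrial UMIs was also highest in the HSC gate (2.77% in WT and 2.07% in cKO) and lower in cKO over all cells (1.84%, against 2.36% in WT). Cells were kept up to 10% mitochondrial UMIs in WT but only up to 5% in cKO, so these shares are not of cells filtered alike. Across the 14 gate and library sums, the genes most like Dusp1 on the log2 (CPM + 1) scale were Fos (Pearson r of 0.99), mt-Atp6 (0.99) and mt-Nd2 (0.99). Within the 7 WT sums alone r was 0.92 for Fos, and within the 7 cKO sums it was 0.89. These points share 2 libraries, their depth and any free RNA, so the correlations are descriptions.

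To set the members beside this signal, cells were grouped by their UMIs from the immediate early list, which holds no member, after thinning to 2000 UMIs. The median cell had 12 such UMIs in WT and 3 in cKO. Dusp1 was higher in cells with more of them in both libraries: in WT it was at 88.0 CPM in cells with 0 to 4, 198 CPM with 5 to 9, 360 CPM with 10 to 19 and 715 CPM with 20 or more. In cKO the same groups had 39.5, 89.3, 204 and 727 CPM. Cells of the same group still differed between the libraries, with log2 ratios of -1.16 (-1.26 to -1.05), -1.15 (-1.25 to -1.05) and -0.82 (-0.998 to -0.65) in the lower 3 groups, against -2.55 over all cells. In the highest group, which held 2170 WT cells and 36 cKO cells, the log2 ratio was 0.03 (-0.29 to 0.32). The part that the immediate early signal has in the difference in Dusp1 was not tested.

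**Figure D2:**
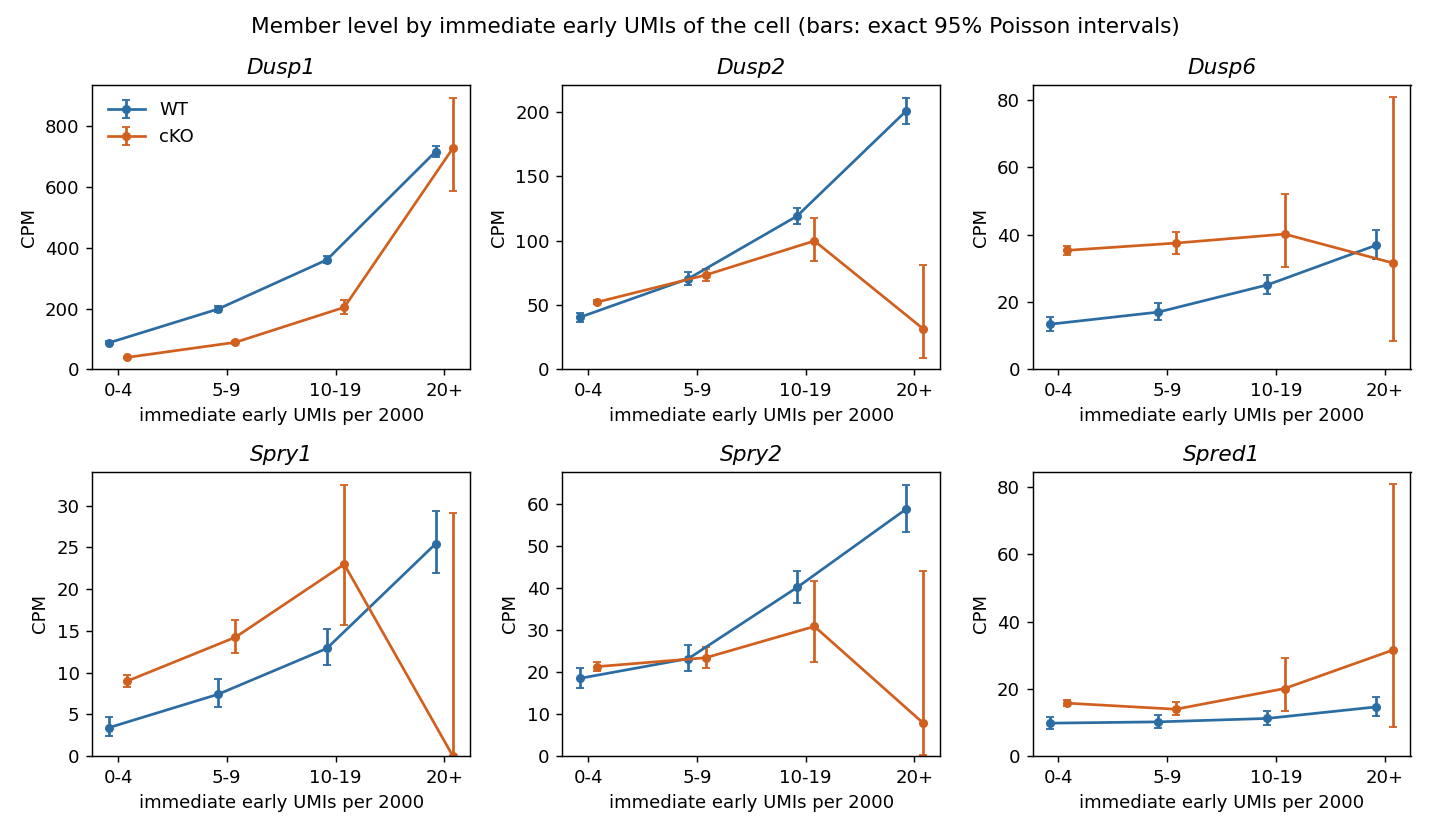
Level of 6 members (y axis, CPM, from 0) in cells grouped by UMIs of the immediate early list per 2000 UMIs (x axis), with WT in blue, cKO in orange and bars for exact 95% Poisson intervals. Dusp1 climbs in both libraries and is lower in cKO in the lower 3 groups, while Dusp6 and Spry1 are higher in cKO there, and the highest group holds only 36 cKO cells.

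Depth moved with the result as well. Cells under 3000 UMIs made up 25.7% of WT and 2.08% of cKO cells, and cells of 12000 UMIs or more made up 4.63% and 30.8%. Dusp1 was lower in deeper cells of both libraries: it went from 563 CPM in WT cells under 3000 UMIs through 382 and 202 CPM to 108 CPM in those of 12000 or more, and in cKO from 418 through 149 and 58.5 to 30.1 CPM. At like depth the log2 ratio was -0.42 (-0.68 to -0.18) under 3000 UMIs, -1.36 (-1.48 to -1.25) from 3000 to 6000, -1.79 (-1.87 to -1.71) from 6000 to 12000 and -1.85 (-1.99 to -1.71) above that. Dusp1 was thus lower in cKO in each of the 4 depth groups, by less than the difference over all cells. The immediate early list as a whole had log2 ratios of -0.29, -1.36, -1.33 and -1.03 in the same groups.

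Dusp2, a nuclear phosphatase found mainly in blood cells, had a WT level of 99.5 CPM (4153 UMIs) against 56.6 CPM (4930 UMIs) in the cKO library, with a log2 ratio of -0.81 (-0.87 to -0.75). The gene lies at chr2:127336159-127338376 on the plus strand. Its level was highest in the LMPP gate of both libraries, 188 CPM in WT and 117 CPM in cKO. In WT the next were the T or NK gate at 133 CPM and the HSC gate at 112 CPM, whose intervals overlapped, and the lowest were the megakaryocyte gate at 62.4 CPM and the GMP gate at 60.6 CPM. Dusp2 was lower in cKO in 6 of 7 groups, with -1.16 (-1.58 to -0.74) in the T or NK gate, -1.01 (-1.23 to -0.78) in the HSC gate and -1.01 (-1.09 to -0.94) in ungated cells, and in the GMP gate the interval included 0 (-0.26, -0.66 to 0.09). A Dusp2 UMI was found in 19.1% of thinned WT cells and 9.86% of thinned cKO cells.

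Dusp2 was not lower in cKO at every immediate early level or depth. Among cells with 0 to 4 immediate early UMIs the log2 ratio was 0.37 (0.23 to 0.51), with 5 to 9 it was 0.06 (-0.08 to 0.20), with 10 to 19 it was -0.25 (-0.52 to -0.00155), and with 20 or more it was -2.50 (-4.54 to -1.31) on 1505 WT and 4 cKO UMIs. By depth it was -0.56 (-1.05 to -0.14) under 3000 UMIs, -0.41 and -0.28 in the middle groups, and 0.34 (0.14 to 0.55) at 12000 UMIs or more. The genes most like Dusp2 over the 14 gate and library sums included Tcf4 (r of 0.98) and Pan3 (0.96).

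Dusp6 and Dusp5 both act on ERK, Dusp6 in the cytoplasm and Dusp5 in the nucleus. Dusp6, at chr10:99263231-99267489 on the plus strand, was higher in cKO: 22.0 CPM (917 UMIs) against 35.8 CPM (3120 UMIs), a log2 ratio of 0.71 (0.60 to 0.81). The LMPP gate had the largest difference, from 32.4 CPM (26.0 to 39.9) in WT to 74.9 CPM in cKO, on intervals that did not overlap, with a log2 ratio of 1.21 (0.77 to 1.65) on 89 and 88 UMIs. It was also higher in the monocyte or dendritic gate (31 and 128 UMIs, log2 ratio 0.89), in the GMP gate (16.3 and 26.2 CPM, 0.71) and in ungated cells (0.62). Markers of B cells moved with it in the LMPP gate: their summed level was 71.4 CPM in WT and 194 CPM in cKO, with 4 and 7 of 8 detected, and Ebf1 was among the leading genes of that gate in cKO. The B gate, too small in WT to compare, had Dusp6 at 103 CPM in cKO. The part of these cells in the Dusp6 difference was not tested. In the HSC gate the levels were 36.8 CPM in WT and 34.4 CPM in cKO, with a log2 ratio of -0.10 (-0.46 to 0.28), and in the megakaryocyte and T or NK gates the interval also included 0. In WT the HSC, T or NK and LMPP gates had the highest Dusp6 levels, with overlapping intervals, and in cKO the LMPP gate stood above every other compared group.

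At like immediate early level Dusp6 had log2 ratios of 1.39 (1.17 to 1.63) in cells with 0 to 4 such UMIs, 1.14 with 5 to 9 and 0.69 with 10 to 19, and it was -0.06 (-2.11 to 1.15) with 20 or more. In WT Dusp6 was higher in cells with more immediate early UMIs, while in cKO it was at 35.4, 37.5 and 40.2 CPM in the lower 3 groups. By depth the ratio was 0.27 (-0.64 to 0.98) under 3000 UMIs, 0.58 and 1.09 in the middle groups and 1.56 (1.23 to 1.94) at 12000 or more. The genes most like Dusp6 over the gate and library sums were Agpat2 and Sh3bp5 (r of 0.91 each) and Trp53i11 (0.90).

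Dusp5 lies at chr19:53529109-53542431 on the plus strand, with AC137853.2 on the other strand. Its promoter window is shown because it alone among the 9 members held the CArG box, the site read by serum response factor, and held 2 of them side by side. The CArG box was in 1.63% of all windows. The matches, at -82 to -73 and -72 to -63 in chr19:53528895-53529194, plus strand of GRCm38.p6, are in capitals.
Dusp5 promoter: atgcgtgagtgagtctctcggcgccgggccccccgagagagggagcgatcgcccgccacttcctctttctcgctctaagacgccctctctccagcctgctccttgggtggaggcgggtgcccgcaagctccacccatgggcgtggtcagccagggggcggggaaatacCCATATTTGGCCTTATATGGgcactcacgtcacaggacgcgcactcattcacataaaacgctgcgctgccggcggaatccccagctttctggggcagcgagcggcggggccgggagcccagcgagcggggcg

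The other motifs searched on both strands were the AP-1 site TGANTCA, in 7.81% of all windows, and the ETS site CCGGAAG, in 8.86%, and neither was in a window of the 9 members. A match is a string of letters in a window of 300 bases and does not show that a factor binds there, and its absence says nothing about sites elsewhere. Dusp4 has no window in the table used.

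Dusp5 had a WT level of 11.9 CPM (498 UMIs) against 9.71 CPM (845 UMIs) in the cKO library, with a log2 ratio of -0.30 (-0.46 to -0.13). Like Dusp2 it was highest, among the compared groups, in the LMPP gate of both libraries, with WT at 27.0 CPM and cKO at 14.5 CPM (log2 ratio -0.87, -1.75 to -0.12). It was also lower in the monocyte or dendritic gate, from 21.3 to 9.12 CPM (-1.22, -1.98 to -0.47), and in ungated cells (-0.59, -0.80 to -0.39). In the GMP gate it was at 4.41 and 4.49 CPM, a difference that counting error covers. In the megakaryocyte gate it had 8 UMIs in WT and 1 in cKO (-1.46, -7.42 to 0.95), and another draw of the thinning turned the direction (0.12). At like immediate early level the direction differed from that over all cells, with log2 ratios of 0.64 (0.29 to 1.02) at 0 to 4 UMIs and 0.70 (0.30 to 1.12) at 5 to 9, while the intervals at 10 to 19 (-0.17) and at 20 or more (1.03) included 0. By depth it was 1.33 (0.54 to 1.99) under 3000 UMIs, -0.31 (-0.75 to 0.09) from 3000 to 6000, and higher in cKO among cells of 6000 to 12000 UMIs (0.70) and of 12000 or more (2.26, 1.35 to 3.58). The genes most like Dusp5 were Map4k4 (r of 0.95), Map3k8 (0.93) and Fxyd5 (0.92).

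Dusp4 and Dusp10 were the members with few UMIs. Dusp4, a nuclear phosphatase at chr8:34807297-34819894 on the plus strand, had 34 WT UMIs (0.815 CPM) and 340 cKO UMIs (3.91 CPM), a log2 ratio of 2.24 (1.75 to 2.82). It was highest in the HSC gate of both libraries, where the levels were 4.77 CPM (10 UMIs) and 6.85 CPM (66 UMIs) and the interval of the log2 ratio included 0 (0.46, -0.45 to 1.65). Ungated cells had 19 and 248 UMIs, and there the ratio was 1.88 (1.24 to 2.67). The megakaryocyte and T or NK gates of WT had 0 Dusp4 UMIs, which allows up to 2.13 and 4.53 CPM (3 counts), against 2 and 7 UMIs in cKO. Cells with 0 to 4 immediate early UMIs held 2 Dusp4 UMIs in WT but 270 in the other library, a log2 ratio of 4.22 (2.67 to 7.59). By depth, Dusp4 had 13 WT and 0 cKO UMIs under 3000 UMIs, where 0 allows up to 8.90 CPM in cKO against 2.49 CPM in WT. It was higher in cKO from 3000 to 6000 UMIs (18 and 30 UMIs, 2.54, 1.67 to 3.49) and from 6000 to 12000 (3 and 178 UMIs, 4.09, 2.74 to 6.60), and in deeper cells, with 0 WT and 132 cKO UMIs, it was at least 6.34-fold higher, taking 3 counts in place of 0.

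Dusp10, which acts on JNK and p38, lies at chr1:184013302-184075636 on the plus strand, overlapped by 1700056E22Rik on the other strand. It had 55 WT UMIs (1.32 CPM) and 123 cKO UMIs (1.41 CPM), a log2 ratio of 0.09 (-0.37 to 0.59). Its interval included 0 in all 7 groups, and its level passed 3 CPM in none of them. The marker gates held at most 18 of its UMIs in a library.

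Of Spry1 and Spry2, Spry2 had the larger difference over all kept cells. Spry2, at chr14:105891947-105896819 on the minus strand, had a WT level of 33.0 CPM (1378 UMIs) against 22.1 CPM (1921 UMIs) in the cKO library, with a log2 ratio of -0.58 (-0.68 to -0.48). In WT it was highest in the HSC gate at 55.4 CPM and the LMPP gate at 53.2 CPM, whose intervals overlapped, and lowest in the GMP gate at 19.4 CPM. In cKO the HSC gate was at 24.1 CPM and the LMPP gate at 33.2 CPM, and the highest level was in the T or NK gate, 35.1 CPM. The log2 ratio was -1.20 (-1.53 to -0.87) in the HSC gate, -0.67 (-1.23 to -0.16) in the LMPP gate, -0.84 (-0.97 to -0.71) in ungated cells and 0.12 (-0.58 to 0.93) in the T or NK gate. A Spry2 UMI was found in 11.1% of thinned WT cells and 4.53% of thinned cKO cells of the HSC gate. At like immediate early level the ratios were 0.20 (0.00132 to 0.41), 0.01 and -0.36 (-0.86 to 0.07) in the lower 3 groups, and -2.31 (-8.20 to -0.41) in the highest, on 1 cKO UMI. By depth they were 0.60 (0.00406 to 1.10) under 3000 UMIs, -0.13 and 0.13 in the middle groups, with intervals that included 0, and 0.43 (0.10 to 0.78) at 12000 or more.

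Spry1, at chr3:37639947-37644598 on the plus strand with Gm42922 on the other strand, had a WT level of 11.2 CPM (467 UMIs) against 10.0 CPM (874 UMIs) in the cKO library, with a log2 ratio of -0.16 (-0.32 to 0.01). Among the compared groups it was highest in the HSC gate of both libraries, with WT at 23.9 CPM and cKO at 15.99 CPM (-0.59, -1.05 to -0.09), and lowest in the GMP gate, at 4.90 and 2.25 CPM. Ungated cells were also lower in cKO (-0.42, -0.64 to -0.20). Neither direction held in cells of 3000 to 6000 UMIs (0.09 in the HSC gate, 0.59 in ungated cells). In the HSC gate it also turned with gates of 3 markers (0.21). In cells of 3000 to 6000 UMIs the direction turned, with a log2 ratio of 0.56 (0.19 to 0.91) over all of them, and it was 0.85 and 0.87 in the deeper groups. Under 3000 UMIs it had 126 WT and 0 cKO UMIs and was at least 2.71-fold lower in cKO, taking 3 counts in place of 0. At like immediate early level Spry1 was higher in cKO, by 1.37 (0.93 to 1.87) on the log2 scale at 0 to 4 such UMIs, 0.94 at 5 to 9 and 0.85 at 10 to 19, and the highest group had 191 WT and 0 cKO UMIs (upper bound of the log2 ratio 0.21). Spry1 was higher in cells with more immediate early UMIs in WT, and in cKO as far as the group with 10 to 19.

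Spred1, at chr2:117121374-117182279, and Spred2, at chr11:19924375-20024026, both lie on the plus strand. Spred1 had a WT level of 11.2 CPM (469 UMIs) against 15.6 CPM (1354 UMIs) in the cKO library, with a log2 ratio of 0.47 (0.32 to 0.62). In cKO it was nearly level across the 7 groups, from 13.5 CPM in the GMP gate to 17.3 CPM in the T or NK gate, while in WT it ran from 7.65 CPM in the LMPP gate to 19.6 CPM in the T or NK gate. Only ungated cells had an interval above 0 (0.29, 0.09 to 0.50), and the LMPP and GMP gates had higher ratios with wider intervals (0.84, -0.20 to 1.84, and 0.74, -0.10 to 1.44). In the immediate early groups the ratio was 0.68 (0.41 to 0.97), 0.45 and 0.86, and 1.27 (-0.79 to 2.51) in the highest. By depth Spred1 was at -0.05 (-1.84 to 1.09) under 3000 UMIs and at 0.95, 0.61 and 1.53 (1.01 to 2.15) in the deeper groups. Spred2 had a WT level of 5.49 CPM (229 UMIs) against 6.43 CPM (560 UMIs) in the cKO library, with a log2 ratio of 0.23 (0.01 to 0.46), and its interval included 0 in all 7 groups. By depth Spred2 was at 2.13 (0.61 to 3.30) under 3000 UMIs, on 7 cKO UMIs, and at 0.30, 0.60 and 0.60 in the deeper groups, where the interval excluded 0 from 6000 to 12000 UMIs.

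For the remaining members, the most alike genes over the same 14 sums had lower correlations than Fos had with Dusp1, and they are given without a reading. They were Rab35 (r of 0.91), Anxa7 (0.89) and Acot2 (0.89) for Dusp4, and Phf12 (0.86), Map7d1 (0.81) and Gid8 (0.81) for Dusp10. For Spry1 they were 2810474O19Rik (0.93), Rab3gap1 (0.92) and Ift74 (0.91), and for Spry2 Rps27 (0.91), Smad1 (0.91) and Rsbn1l (0.90). For Spred1 they were 4933434E20Rik (0.87), Twistnb (0.84) and 2300009A05Rik (0.83), and for Spred2 Mtss1 (0.89), Gstt2 (0.87) and Ctsw (0.86).

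**Figure D3:**
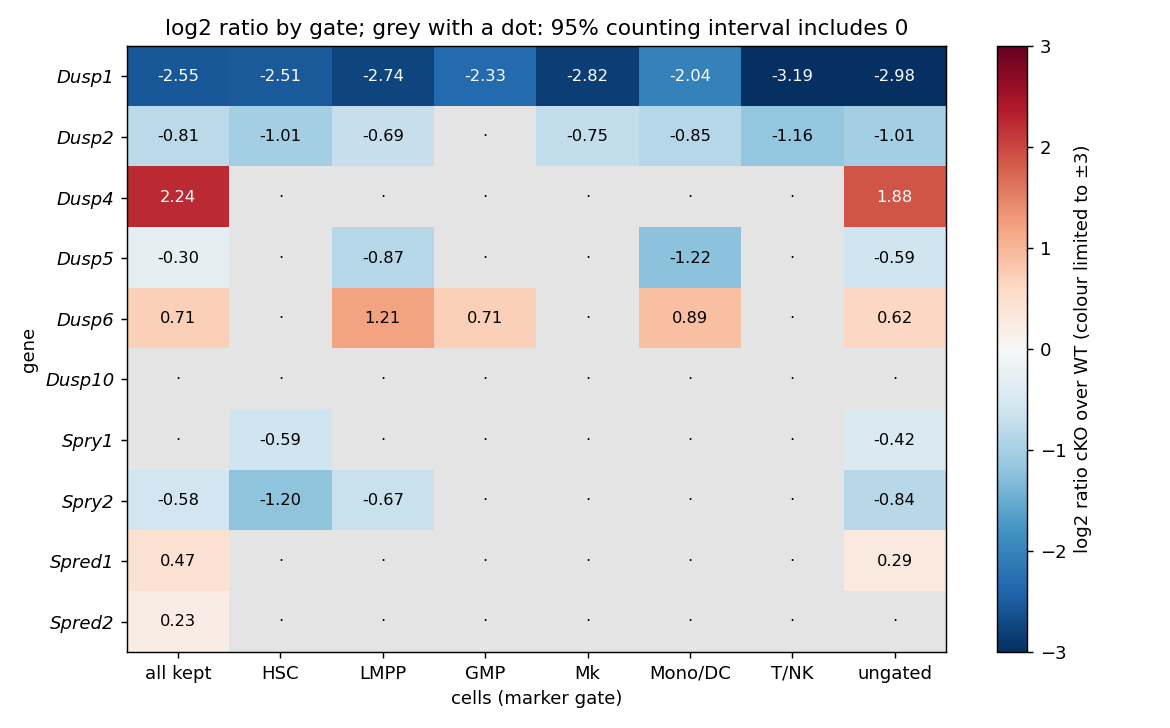
log2 ratio of cKO over WT for the 10 members (rows) in all kept cells, 6 marker gates and ungated cells (columns), with blue for lower and red for higher in cKO and grey with a dot where the exact 95% counting interval includes 0. The Dusp1 row is blue throughout, from -3.19 to -2.04, the Dusp6 row is red in 4 of the 7 groups, and the HSC column holds values for Dusp1, Dusp2, Spry1 and Spry2.

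The members past 2-fold differed by gate. In the HSC gate Dusp1, Dusp2 and Spry2 were lower by 2-fold or more of 9 members at 5 CPM, where 9.41% of all genes at that level were lower by as much and 2.63% were higher. Dusp2 was near the threshold there and did not pass it with median-of-ratios scaling (-0.87), with the total taken without mitochondrial and ribosomal protein genes (-0.92) or with each cell scaled (-0.99). In cells of 3000 to 6000 UMIs of that gate Dusp2 was at -0.16 and Spry2 at -0.39. In the LMPP gate Dusp1 was lower and Dusp6 higher of 8 members, against 10.0% and 4.72% of all genes, and Dusp6 did not pass with each cell scaled (0.93). In the GMP gate Dusp1 was lower of 5 members (5.52% and 3.72% of all genes). Dusp1 and Dusp5 were lower of 8 members in the megakaryocyte gate (12.6% and 6.60%), where the interval of Dusp5 included 0, and in the monocyte or dendritic gate (8.34% and 4.60%). Dusp1 and Dusp2 were lower of 8 members in the T or NK gate (14.5% and 5.48%) and in ungated cells (6.37% and 2.71%). Dusp5 in the monocyte or dendritic gate did not pass in cells of 3000 to 6000 UMIs (-0.59), with gates on all UMIs (-0.85) or with gates at 1000 UMIs (-0.66). Dusp2 in the T or NK gate did not pass with gates at 1000 UMIs (-0.62), with another draw of the thinning (-0.77) or with each cell scaled (-0.98). Dusp2 in ungated cells did not pass under 5 alternatives, the smallest difference being -0.51 in cells of 3000 to 6000 UMIs. The median log2 ratio of the members at level lay between -0.62 in the LMPP gate and -0.14 in the GMP gate, and that of all genes between -0.15 in the HSC gate and -0.00193 in the GMP gate.

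The other genes of the pathway were read from lists. Of 16 further phosphatase, Sprouty and Spred genes, 7 reached 5 CPM, with 0 past 2-fold in either direction and a median log2 ratio of 0.09. The highest were Dusp3 (6.23 and 11.9 CPM, 0.94) and Dusp12 (0.40), and the lowest Dusp23 (-0.34) and Dusp19 (-0.10). Spry4, below 5 CPM and named after its values were seen, had 8 UMIs in WT and 100 in cKO (log2 ratio 2.50, 1.55 to 3.83).

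Upstream of ERK, 2 of 24 genes at 5 CPM were lower by 2-fold or more and 0 were higher, with a median of -0.07. These were the receptors Kit (63.6 and 21.7 CPM, -1.55) and Flt3 (93.7 and 34.6 CPM, -1.44), and c-Kit was a marker of the sort. The highest were the MEK genes Map2k1 (20.1 and 29.0 CPM, 0.53) and Map2k2 (90.6 and 127 CPM, 0.49). In the JNK and p38 cascade 0 of 14 genes at level passed 2-fold in either direction. Of these 14, 12 had ratios below 0, where 56.8% of all genes at level did, and the median was -0.22. Map3k1 (-0.74) and Map3k5 (-0.72) were the lowest, and Map3k11 and Map2k3 (0.03 each) the highest.

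Transcripts that ERK induces split into groups. Of 11 at 5 CPM, 4 were lower by 2-fold or more (Egr1, Fos, Ier2 and Ier3) and 3 were higher (Etv4, Etv5 and Ccnd1). Egr1, Fos and Ier2 are in the immediate early list as well. Fos (475 and 78.8 CPM, -2.59) and Egr1 (105 and 17.6 CPM, -2.58) were the lowest. Etv4 and Etv5, ETS factors induced by receptor tyrosine kinases, were the highest: Etv4 had 1 UMI in WT and 577 in cKO (log2 ratio 7.53, 5.63 to 13.42), and Etv5 had 1.84 CPM in WT against 9.73 CPM in cKO (2.39, 2.06 to 2.76). Ccnd1, a cyclin that drives entry into the cell cycle, was at 13.1 CPM and 43.7 CPM (1.74, 1.61 to 1.88). By gate, Etv5 was higher in cKO in the LMPP gate (2 and 20 UMIs, 4.26, 2.50 to 7.69) and in the HSC gate (8 and 116 UMIs, 1.58, 0.63 to 2.90), and in the megakaryocyte gate it had 5 and 1 UMIs. In the HSC gate, where the interval of Dusp6 included 0, Ccnd1 was also higher in cKO (1.69, 1.12 to 2.38). Egr1 (-2.92), Fos (-2.63), Ier3 (-1.87) and Ier2 (-1.63) were lower in that gate. Ccnd1 was higher in every compared group except the megakaryocyte gate, where the interval included 0 (0.60, -0.24 to 1.39). Phosphorylated ERK, JNK or p38 was not measured in these libraries.

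**Figure D4:**
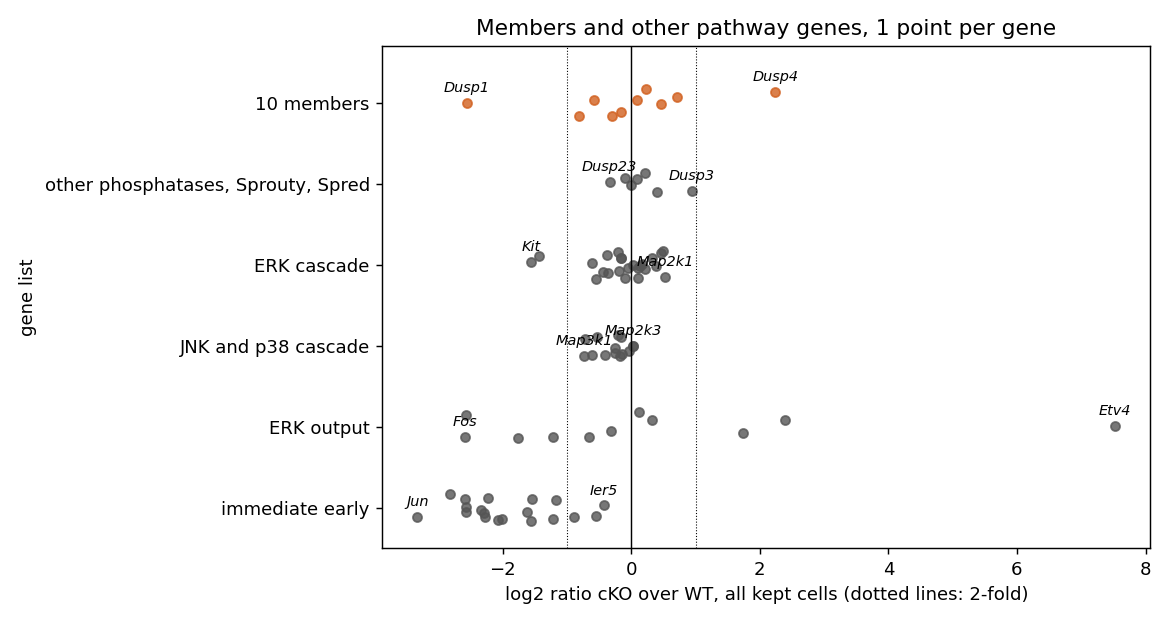
log2 ratio of cKO over WT in all kept cells (x axis) for the 10 members (orange) and for the genes of 5 lists at 5 CPM or more in a library (grey, y axis by list), with 1 point per gene, the lowest and highest gene of each list named and dotted lines at 2-fold. The immediate early genes all lie left of 0 while the ERK output list runs from Fos at -2.59 to Etv4 at 7.53, which rests on 1 WT UMI.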

How the data were processed

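The 2 libraries of LSK cells were assigned to WT or cKO from their titles. Raw UMI counts for each gene and barcode were deposited, after alignment to mm10 (GRCm38) and counting by the authors in Cell Ranger 6.0.0. Columns of samples outside the series numbered 0. Totals were 47991455 UMIs in 8869 WT barcodes and 98323201 UMIs in 9260 cKO barcodes.

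Cells were kept by the limits of the study (over 200 genes, under 4000 genes and 10% mitochondrial UMIs in WT, under 4500 genes and 5% in cKO, under 5% haemoglobin UMIs). Likely doublets were removed by the share of simulated doublets among 50 neighbours in 20 components of 1500 variable genes, at 0.8% per 1000 barcodes, which marked 7.09% and 7.41%. Gates and shares used cells thinned to 2000 UMIs, and 205 WT and 105 cKO cells below that depth were dropped there. In the GMP and neutrophil lists a marker needed 3 UMIs, and Cavin2 and Trbc1 were not found.

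CPM are of summed UMIs. log2 ratios carry a prior of 0.5 counts. Intervals are exact (Poisson for levels, conditional binomial for ratios, Clopper-Pearson for shares, scipy 1.17.1), and UMIs are counted, so they cover counting error only. With 1 library per genotype no test was possible, so a difference of 2-fold at 5 CPM stands in for a call. The named genes were all members, the 2 highest and 2 lowest of each list at 5 CPM, the 3 genes most like a member among those at 20 CPM, and Trmt6. Outside that rule, gate markers, Spry4, Ccnd1, Ier2 and Ier3 were named after their values were seen. For Dusp2, 1 gene that the rule names is not reported here. Members and lists were chosen with earlier results of these data known. Positions are from GENCODE M21 and promoter windows from RefSeq (GRCm38.p6), where 9 of 10 members were listed. Protein sequences were not used here. The scripts were tested on simulated data. Alternatives in filtering, doublets, scaling, depth, gating and thresholds were recomputed.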

Additional observations from a re-analysis of the deposited data

How the results depend on the processing

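No paired analysis was possible because there was 1 library per genotype. Among calls whose interval excluded 0, no alternative value had the other sign. Dusp5 in the megakaryocyte gate, a call whose interval included 0, turned with another draw of the thinning (0.12). Over all cells, 56 of 56 alternative values of members whose interval excluded 0 kept their sign, and in the cell groups 241 did and 3 did not: Spry1 turned in the HSC gate in cells of 3000 to 6000 UMIs (0.09) and at 3 markers (0.21), and in ungated cells of 3000 to 6000 UMIs (0.59). Dusp1 over all cells ranged from -2.80 to -1.36, the smaller difference being that in cells of 3000 to 6000 UMIs, Dusp2 from -1.04 to -0.41, Dusp4 from 1.55 to 2.54, Dusp6 from 0.42 to 0.79 and Spry2 from -0.78 to -0.13. These alternatives hold only the depth group of 3000 to 6000 UMIs and no immediate early group. In cells of 12000 UMIs or more, outside them, Dusp2 (0.34), Spry2 (0.43) and Dusp5 (2.26) turned to higher in cKO.

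Members lower by the threshold over all cells numbered 2 of 8 with each cell scaled before averaging, beside 5.28% of all genes at level. At a log2 ratio of 0.5 they numbered 3 of 8, beside 17.7% of all genes. In the main setting it was 1 of 8, beside 5.24%. Members higher numbered 1 of 9 in cells of 3000 to 6000 UMIs, beside 4.83% of all genes at level. They numbered 1 of 8 at a log2 ratio of 0.5 (8.75% of all genes) and 1 of 10 at a level of 1 CPM (4.59%). In the main setting it was 0 of 8 (2.90%). The median of all 10 members in cells of 3000 to 6000 UMIs was 0.42. Summed over the 7 groups, 13 of 54 member values at level were lower and 1 was higher. No share of all genes was computed for such sums, and the shares by group are given above for the main setting only. Lower values numbered 2 of 27 in cells of 3000 to 6000 UMIs (3 groups) and 7 of 26 with gates of 3 markers (3 groups). They numbered 7 of 42 with gates at 1000 UMIs (5 groups) and 25 of 54 at a log2 ratio of 0.5. Higher values numbered 2 of 54 without doublet removal, 0 of 54 with each cell scaled and 5 of 27 in cells of 3000 to 6000 UMIs. They numbered 2 of 57 with gates on all UMIs, 7 of 54 at a log2 ratio of 0.5 and 8 of 69 at 1 CPM. Groups with fewer than 50 cells in a library under an alternative gave no value, so those sums cover fewer groups, and the cause of the other changes was not tested. Single gates held few UMIs of Dusp4 and Dusp10.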
